A study of Mus musculus with 8 samples.

Results

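The genes described here are 47 genes that run the cell division cycle, listed as replication, cyclin, cyclin-dependent kinase (CDK) and mitosis genes and followed across 4 groups of sorted mouse hair follicle cells. Each gene was represented by 1 probe set, the one with the highest mean signal over the 8 arrays among the probe sets that carry a single gene symbol. This gave values for 46 of the 47 genes, of 18193 genes in all; Ccnb1, a mitotic cyclin, had no probe set with a single symbol and was not analysed here. They fall into 13 genes of G1 control, 16 of S phase and 18 of G2 and mitosis, of which 17 were measured.

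The arrays, Affymetrix Mouse Genome 430 2.0, numbered 8, with 2 for each of the 4 groups. Wild-type mice (WT) and mice with a doxycycline-inducible Runx1 transgene (Tet-on; labelled Runx1 iTG) were compared. Controls and transgenic mice alike ate food with doxycycline (1 g per kg) over 1 day, a treatment whose stated purpose was to repress the reporter H2BGFP. Skin was taken at postnatal day 20 and had the morphology of telogen, the hair cycle's resting phase; the iTG arrays numbered 2 carry the label day 21. Cells positive for K15-GFP and for α6-integrin were sorted by the surface protein CD34. The CD34+ fraction was labelled bulge, the niche of long-lived hair follicle stem cells, and the CD34- fraction was labelled hair germ, a small group of cells at the base of the resting follicle from which regrowth begins. The promoter that directs the transgene, and whether a sample pooled several mice, are not given in the sources used here.

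A cell that leaves rest passes through G1, where D-type cyclins with CDK4 or CDK6 and then cyclin E with CDK2 phosphorylate the retinoblastoma family. This frees E2F factors, which switch on the genes of DNA synthesis. In S phase the MCM helicase, loaded on origins by CDC6 and CDT1, is activated and the DNA is copied, and cyclin A and cyclin B with CDK1 then drive the cell into mitosis, where the spindle checkpoint and the anaphase-promoting complex time the separation of chromosomes. The transcripts of S phase and mitosis genes are therefore low in resting cells and high in dividing ones. Hair follicle stem cells are known to be mostly quiescent in telogen, with the hair germ dividing ahead of the bulge as growth begins.

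Many of these genes are known to be switched on through a small set of promoter elements, so the promoters of members that stand for each class are shown first. They are the 250 bases before the RefSeq start (GRCm38.p6), 5′ to 3′ on the gene's strand, of the S gene Mcm6 (chr1:128359706-128359955, minus strand), the mitotic genes Cdk1 (chr10:69352913-69353162, minus strand) and Ccnb2 (chr9:70421555-70421804, minus strand), and the G1 gene Ccnd3 (chr17:47504801-47505050, plus strand), the member that passed the test in the opposite direction. Capitals mark matches on either strand to 3 elements. The E2F site was searched in the form TTCCCGC, in the form with a double G, spelled TTGGCGC, and in a further form that was entered as TTCGCGC. The cell cycle homology region (CHR) was searched as TTTGAA and, in its less frequent form, as TTCGAA. The CCAAT box was searched by the letters of its name.
Mcm6: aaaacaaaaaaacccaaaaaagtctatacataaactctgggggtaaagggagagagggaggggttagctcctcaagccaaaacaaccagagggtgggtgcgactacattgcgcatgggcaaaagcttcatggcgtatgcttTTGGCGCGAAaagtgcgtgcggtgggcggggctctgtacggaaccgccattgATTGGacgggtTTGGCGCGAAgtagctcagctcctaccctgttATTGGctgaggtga
Cdk1: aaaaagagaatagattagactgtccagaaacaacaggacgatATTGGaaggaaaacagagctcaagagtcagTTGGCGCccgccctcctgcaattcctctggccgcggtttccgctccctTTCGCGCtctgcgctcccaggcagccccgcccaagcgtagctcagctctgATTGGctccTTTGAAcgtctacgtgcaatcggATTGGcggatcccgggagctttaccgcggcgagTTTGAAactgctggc
Ccnb2: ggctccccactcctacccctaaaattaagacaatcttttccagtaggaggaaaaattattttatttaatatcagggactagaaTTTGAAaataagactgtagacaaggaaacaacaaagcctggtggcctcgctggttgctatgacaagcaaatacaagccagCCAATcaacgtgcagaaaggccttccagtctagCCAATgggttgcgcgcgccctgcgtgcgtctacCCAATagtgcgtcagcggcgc
Ccnd3: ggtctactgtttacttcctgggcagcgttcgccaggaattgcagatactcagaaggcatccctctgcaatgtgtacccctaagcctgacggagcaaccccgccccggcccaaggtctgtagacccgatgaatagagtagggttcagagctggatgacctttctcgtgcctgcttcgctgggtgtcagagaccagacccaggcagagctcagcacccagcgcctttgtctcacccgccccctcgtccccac
The Mcm6 promoter holds E2F matches 109 and 46 bases before the start, each overlapped by a second match on the other strand, and CCAAT boxes at 57 and 14 bases. The Cdk1 promoter holds E2F matches at 178 and 130 bases, CHR matches at 71 and 15 bases and CCAAT boxes at 208, 80 and 48 bases before the start. In Ccnb2 a CHR match lies 167 bases and CCAAT boxes lie 87, 54 and 21 bases before the start. Past the printed bases, Ccnb2 has a further CHR match at base 5 after the start, and Mcm6 a further E2F match at base 25. The Ccnd3 promoter shown holds none of these letters, and the other Ccnd3 start in the table has a single CCAAT box, 108 bases before it. A promoter without any match was not particular to Ccnd3. The promoters of Cdk6, Cdk4, Ccne1, E2f1, Tk1 and Birc5, which passed as higher in hair germ, hold none either. Nor does that of Tyms, which did not pass.

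RefSeq promoters were found for 37 of the 47 genes, with 41 starts because 4 genes have 2. In windows of 300 bases (250 before and 50 after the start), an E2F match was present in 8 of 15 promoters of S genes, 4 of 12 of G1 genes and 3 of 14 of mitotic genes, against 8.07% of all 32851 promoters in the table. A CHR match was present in 12 of 14 mitotic promoters, 3 of 15 S promoters and 2 of 12 G1 promoters, against 19.2% of all promoters. CCAAT boxes were present in 13 of 14 mitotic, 11 of 15 S and 5 of 12 G1 promoters, against 37.4% of all promoters. The listed E2F forms can overlap one another, and a match is a run of letters, not a shown binding site.

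The labels were checked against the transgene, the sort gene Cd34 and listed marker genes. Runx1 signal was 21.2-fold higher in iTG than in WT bulge (adjusted p = 0.000158) and 25.4-fold higher in iTG than in WT hair germ (adjusted p = 9.11e-05). Cd34, on which the cells were sorted, was below background on 3 of 4 hair germ arrays. None of 6 listed hair germ genes was higher in the samples labelled hair germ. Lgr5 (-4.68), Bmp2 (-3.04), Wif1 (-2.71), Lef1 (-1.89) and Cdh3 (-0.98) were lower there than in bulge (log2, genotypes averaged). Lgr5, Wif1, Lef1 and Cdh3 were still above background on all 8 arrays. The summed signal of the 6 genes was 1057 to 2002 on the hair germ arrays and 11020.2 to 14344 on the bulge arrays. Genes of the upper follicle and sebaceous gland were higher in 5 of 6 cases, with summed signals of 45497 to 52436 against 12387 to 21755, among them Mc5r (5.22), Krt79 (3.20), Scd1 (2.24), Plet1 (1.90) and Lrig1 (1.33), and Krt17 was lower (-1.51). Among bulge genes 6 of 8 were lower in hair germ, among epidermal differentiation genes 5 of 5 and among matrix and hair shaft genes 3 of 6. Of 8 melanocyte, 6 fibroblast, 6 immune and 4 endothelial genes, 0 were higher in hair germ and 2, 3, 1 and 0 were lower. The names bulge and hair germ are used below as the labels of the CD34+ and CD34- sorts, and the part of the upper follicle genes in the results was not tested.

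Arrays of 1 group also differed. By Xist and Y-linked signals, replicate 1 of every group came from male and replicate 2 from female cells, and both iTG arrays numbered 2 were taken a day later. In bulge, replicate 1 lay above replicate 2 for 40 of 46 members in WT and 44 of 46 in iTG, against 51.4% and 50.5% of all genes. For the mitotic genes the median gap between the bulge replicates was 1.5 in WT and 1.60 in iTG (log2), and for the S genes 1.02 and 0.83. In hair germ, replicate 1 was the higher array for 8 of 46 members in WT and 31 of 46 in iTG, against 50.3% and 42.2% of all genes. The typical member differed 2.02-fold between WT bulge replicates, 2.01-fold between iTG bulge replicates, 1.52-fold between WT hair germ replicates and 1.18-fold between iTG hair germ replicates. Over all genes these values were 1.38, 1.41, 1.38 and 1.37. Sex was shared by all groups in the same way, so it does not separate the groups, but every standard error below includes it, and counts are repeated without the bulge arrays numbered 2.

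**Figure D1:**
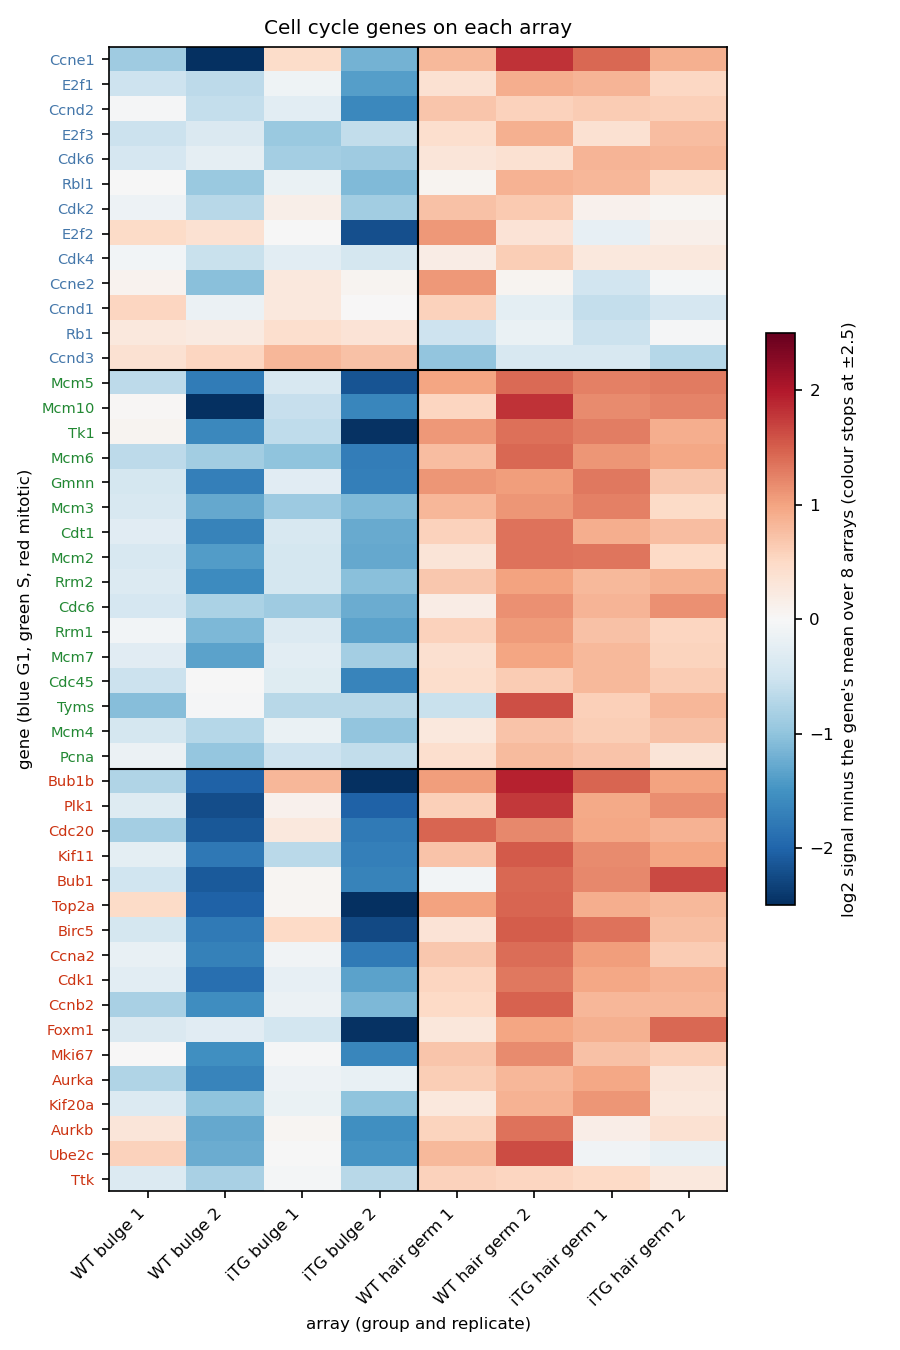
Signal of each measured member (rows, by class) on each of the 8 arrays (columns), as log2 signal minus the gene's mean over the arrays; colour stops at ±2.5. Nearly all S and mitotic rows are red on the 4 hair germ arrays, the bulge arrays numbered 2 are the bluest columns, and Ccnd3 and Rb1 run the other way.

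The first comparison asked how the CD34- population differs from the CD34+ bulge in the machinery of division. Transcripts of DNA replication and mitosis were higher in hair germ: with the genotypes averaged (4 arrays a side), 37 of 46 members rose and 1 fell. Of all genes 9.24% rose and 9.17% fell in that comparison, at the same threshold of an adjusted p under 0.05. S genes rose in 15 of 16 cases, mitotic genes in 15 of 17 and G1 genes in 7 of 13, with Ccnd3 the member that fell. The class medians were 1.73 for S, 1.85 for mitotic and 0.77 for G1 genes on the log2 scale, beside -0.09 for all genes. Read array by array, 35 of 46 members had all 4 hair germ signals above all 4 bulge signals (10.8% of all genes), and 2 had the reverse order (11.7%). These are bulk samples, in which a larger share of dividing cells and more of each transcript per cell cannot be told apart.

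Within WT alone 13 members rose and 1 fell (3.16% and 3.79% of all genes), and within iTG alone 17 rose and 1 fell (4.57% and 5.32%). The class medians were 0.93 (G1), 1.76 (S) and 1.99 (mitotic) in WT, and 1.06, 1.73 and 1.69 in iTG. With 2 arrays a side the calls within a genotype rest on each array. Without WT bulge replicate 2 or either WT hair germ array, the share of members that passed in WT was near or below that of all genes. The same held in iTG without iTG bulge replicate 2 or either iTG hair germ array. With any other array left out, the share of members was above that of all genes. Over all genes 6.94% passed in WT, 9.89% in iTG and 18.4% with the genotypes averaged, higher and lower together, and leaving out 1 array brought these shares to 1.86% to 6.6%, 3.39% to 8.49% and 11.3% to 16.2%. In WT no member passed without WT bulge replicate 2, 2 passed without WT hair germ replicate 1, 1 without WT hair germ replicate 2, and 6 and 8 without iTG hair germ replicate 1 or 2. In iTG 2 passed without iTG bulge replicate 2 or without iTG hair germ replicate 1, 3 without iTG hair germ replicate 2, and 11 and 10 without WT hair germ replicate 1 or 2. With the genotypes averaged, 21 members passed without WT bulge replicate 2, 21 without WT hair germ replicate 2 and 22 without iTG hair germ replicate 1. Without both bulge arrays numbered 2, a setting chosen after seeing the data, 10 members passed (5.75% of all genes): Ccnd2, Cdk6, Mcm3, Mcm5, Mcm6, Gmnn, Rrm2, Tk1, Cdc20 and Kif11. Using the day 20 arrays alone, 8 passed (9.14% of all genes): Cdk6, Ccnd3, Mcm3, Mcm5, Mcm6, Gmnn, Cdc20 and Aurka. Each gene was read through its brightest probe set. With the mean of its probe sets instead, 29 members passed with the genotypes averaged (17.9% of all genes). Of the 38 in the main fit 10 did not: Aurka (0.63, adjusted p = 0.109), Ccnd3 (-1.29, adjusted p = 0.0764), Rrm1, E2f1, Rbl1, Cdc45, Top2a, Bub1, Bub1b and Ttk.

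The S genes had the same sign in every pair of arrays of the same genotype and number. Setting hair germ against bulge between arrays of the same number, all 16 S genes were higher in hair germ in WT number 1, WT number 2, iTG number 1 and iTG number 2, with medians of 0.79, 2.36, 1.46 and 1.99 (log2). The 17 mitotic genes were all higher except for 1 in iTG number 1, with medians of 0.81, 3.08, 0.86 and 2.41. The G1 genes were higher in 11, 9, 7 and 9 of 13 cases. The G1 genes had medians of 0.73, 1.16, 0.52 and 1.40, so in every class and genotype the gap was smaller between the arrays numbered 1. Over all genes the share that was higher in hair germ was 44.6% to 49.9% in these pairs.

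**Figure D2:**
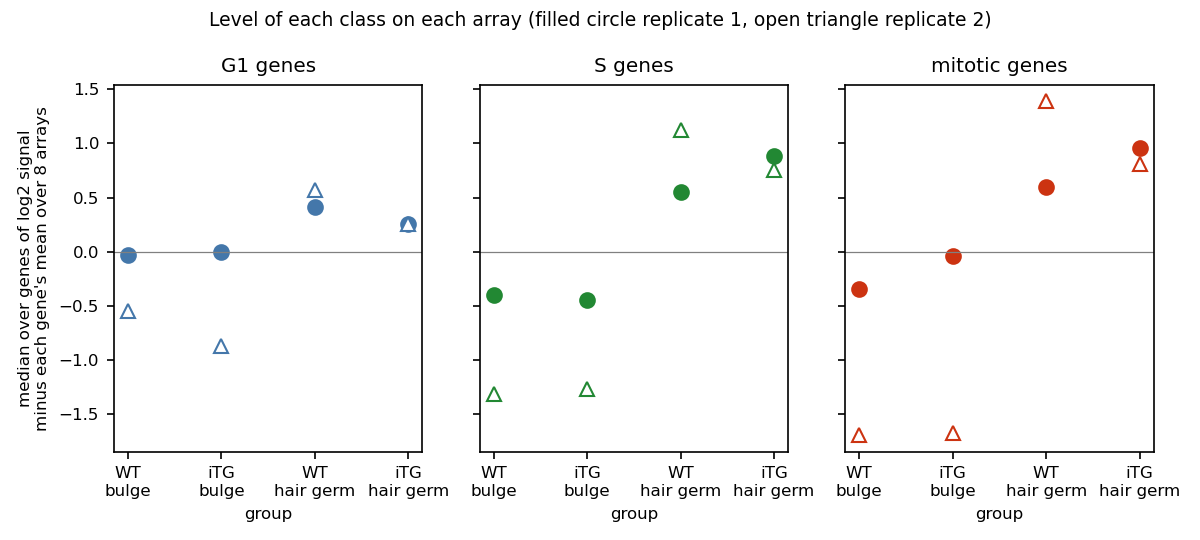
Median over the members of each class of log2 signal minus the gene's mean over the 8 arrays, for each array (filled circles replicate 1, open triangles replicate 2; 13 G1, 16 S and 17 mitotic genes). All hair germ arrays lie above all bulge arrays in each class, and in bulge the triangles lie well below the circles, most in the mitotic class (-1.69 and -1.67 against -0.34 and -0.04).

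G1 control was the mixed class. The D-type cyclins are the growth-factor-sensed cyclins of G1, and the 3 of them did not move together. Ccnd2 signal, with replicate 1 first in each pair, was 6729.8 and 4564 in WT bulge and 11173 and 10208 in WT hair germ, and 5683 and 2239 in iTG bulge and 10699 and 10372 in iTG hair germ. All hair germ arrays exceeded all bulge arrays, and Ccnd2 rose 2.39-fold (log2 1.25, SE 0.268, adjusted p = 0.00962). Ccnd3 signal was 1443 and 1608 in WT bulge, 558 and 838 in WT hair germ, 1971 and 1824 in iTG bulge and 841 and 677 in iTG hair germ. Here every bulge array exceeded every hair germ array, and Ccnd3 fell by 1.24 on the log2 scale (2.37-fold, SE 0.192, adjusted p = 0.00175). Ccnd1 signal was 1995 and 1238 and 2039 and 1155 in WT bulge and hair germ, and 1644 and 1385 and 908 and 1016 in iTG. The WT arrays overlapped while the iTG arrays did not, and the averaged difference of -0.34 (SE 0.233) did not pass (adjusted p = 0.368).

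The catalytic partners of these cyclins rose. Cdk6 signal was 1409.5 and 1622 in WT bulge, 2337 and 2464 in WT hair germ, 1044 and 1023 in iTG bulge and 3413 and 3337 in iTG hair germ, with no overlap in either genotype and a spread between replicates that was small beside the gap. It rose 2.28-fold (log2 1.19, SE 0.148, adjusted p = 0.000476). Cdk4, the other D-cyclin kinase, rose 1.58-fold (log2 0.66, SE 0.172, adjusted p = 0.0241), from signals of 2387 to 3324 in bulge to 3981 to 5374 in hair germ. Cdk2, the partner of cyclins E and A, went from 253 to 511 in bulge to 476 to 769 in hair germ; the ranges overlapped and its difference of 0.77 did not pass (adjusted p = 0.0823).

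Ccne1 is a cyclin E that acts at the G1 to S boundary. Its signal was 102 and 19.0 in WT bulge, 334 and 665 in WT hair germ, 262 and 84.2 in iTG bulge and 513 and 353 in iTG hair germ, so 1 WT bulge array was below the background limit of 31.1 and hair germ stayed above bulge. The averaged rise of 5.53-fold (log2 2.47, SE 0.576, adjusted p = 0.0149) carries the widest error of the G1 class. Ccne2, its paralog, showed no such step: its bulge signals of 95.5 to 239 overlapped hair germ signals of 143 to 423, and the difference was 0.32 (adjusted p = 0.631).

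The E2F factors and the pocket proteins that hold them made up the rest of the class. E2f1 signal was 365 and 333 in WT bulge, 685 and 982 in WT hair germ, 487 and 203 in iTG bulge and 939 and 755 in iTG hair germ, a rise of 2.51-fold (log2 1.33, SE 0.296, adjusted p = 0.0118) with no overlap. E2f3, like E2f1 an activating E2F, rose 2.34-fold (log2 1.22, SE 0.233, adjusted p = 0.00530), from 233 to 345 in bulge to 574 to 815 in hair germ. E2f2 did not pass (0.67, adjusted p = 0.360), and 1 iTG bulge array stood far below the others at 55.5. Rbl1 (p107), a pocket protein that is itself an E2F target, rose 2.15-fold (log2 1.10, SE 0.337, adjusted p = 0.0474). Rb1, the retinoblastoma gene, had bulge signals of 509 to 582 and hair germ signals of 298 to 428; these ranges did not overlap, but the difference of -0.63 (SE 0.228) did not pass (adjusted p = 0.0891). Ccne2 and Rb1 fall outside the naming rule and were named after their values were seen.

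S genes were the class with the most members called in each genotype. Among the subunits of the MCM helicase, Mcm6 had the smallest p of all members in the averaged comparison. Its signal was 1384 and 1197 in WT bulge and 3745 and 5902 in WT hair germ, and 1085 and 661 in iTG bulge and 4682 and 4252 in iTG hair germ. The lowest hair germ array was well above the highest bulge array, and Mcm6 rose 4.39-fold (log2 2.13, SE 0.213, adjusted p = 0.000134). With the mean of its probe sets it rose by 1.06 on the log2 scale (adjusted p = 0.0392), and within WT the difference was then 0.43 and did not pass (adjusted p = 0.638). Mcm5 signal was 1125 and 530.4 in WT bulge, 3531 and 4725 in WT hair germ, 1352 and 396 in iTG bulge and 4248 and 4387 in iTG hair germ. It rose 5.58-fold (log2 2.48, SE 0.368, adjusted p = 0.00137), although its bulge replicates differed more than those of Mcm6. Mcm3 signal was 1166 and 628 in WT bulge, 2729.8 and 3298 in WT hair germ, 816 and 708 in iTG bulge and 3664 and 2142 in iTG hair germ, a rise of 3.6-fold (log2 1.85, SE 0.246, adjusted p = 0.000722). Mcm3, Mcm5 and Mcm6 passed within WT (adjusted p = 0.0133, 0.0228 and 0.00567) and within iTG (0.00853, 0.0134 and 0.00123). The other helicase subunits rose as well: Mcm2 by 1.75, Mcm4 by 1.16 and Mcm7 by 1.38 on the log2 scale (adjusted p = 0.00602, 0.00484 and 0.00483).

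The factors that load and fire the helicase followed. Cdt1, which with CDC6 loads the helicase on origins, had signals of 1353 and 522 in WT bulge, 2461 and 4272 in WT hair germ, 1249 and 690.3 in iTG bulge and 3110.3 and 2845 in iTG hair germ. Geminin (Gmnn), the inhibitor of CDT1 that prevents a second round of loading, had 355 and 147 in WT bulge, 1033 and 986 in WT hair germ, 397 and 146 in iTG bulge and 1204 and 763 in iTG hair germ. Both the loader and its inhibitor were thus higher in hair germ without overlap, Cdt1 3.52-fold (log2 1.81, SE 0.324, adjusted p = 0.00377) and Gmnn 4.19-fold (log2 2.07, SE 0.380, adjusted p = 0.00444). Cdc6 rose 3.18-fold (log2 1.67, SE 0.305, adjusted p = 0.00431), from 112 to 196 in bulge to 301 to 581 in hair germ. Cdc45, a part of the active helicase, rose 2.37-fold (log2 1.25, SE 0.365, adjusted p = 0.0401), from signals of 62.1 to 193 in bulge to signals of 262 to 339.8 in hair germ. Mcm10, needed for origin firing, was 163 and 26.2 in WT bulge, 230.5 and 557 in WT hair germ, 107 and 51.6 in iTG bulge and 363 and 376 in iTG hair germ; 1 bulge array was below background, and the rise was 5.23-fold (log2 2.39, SE 0.582, adjusted p = 0.0185).

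Genes of the moving fork and of nucleotide supply also rose. Pcna, the sliding clamp of DNA polymerases, had signals of 4458 and 2532 in WT bulge, 6615 and 8641 in WT hair germ, 3485 and 3245 in iTG bulge and 8095 and 6244 in iTG hair germ, a rise of 2.18-fold (log2 1.13, SE 0.205, adjusted p = 0.00425). This was the smallest rise of the class, yet Pcna passed within WT and within iTG (adjusted p = 0.0407 and 0.0443). Rrm2, the cycle-regulated subunit of ribonucleotide reductase, was 2011 and 855 in WT bulge, 4064 and 5071 in WT hair germ, 1859 and 1229 in iTG bulge and 4476 and 4719 in iTG hair germ, and rose 3.24-fold (log2 1.70, SE 0.264, adjusted p = 0.00180). Its partner Rrm1 rose 2.72-fold (log2 1.45, SE 0.284, adjusted p = 0.00618). Tk1, the thymidine salvage kinase, went from 106 to 621 in bulge to 1116 to 1534 in hair germ, a rise of 5.0-fold (log2 2.32, SE 0.446, adjusted p = 0.00554). Tyms, thymidylate synthase, was the S gene that did not pass (1.24, adjusted p = 0.134); its signals were 55.5 and 114 in WT bulge, 79.5 and 358 in WT hair germ, 72.1 and 72.4 in iTG bulge and 176 and 207 in iTG hair germ, so the 2 populations overlapped. Tyms too was named after its values were seen.

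**Figure D3:**
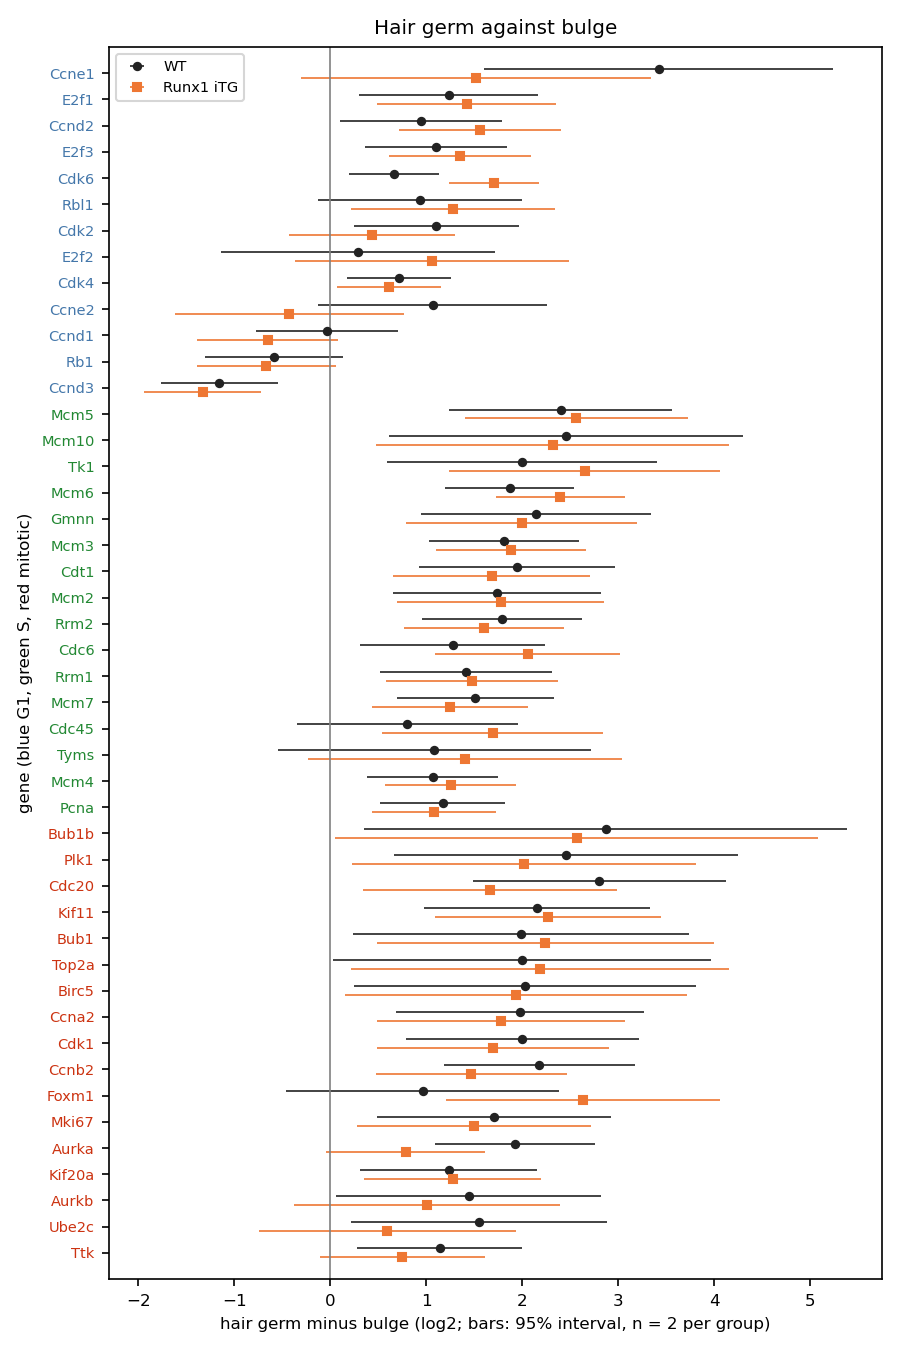
Hair germ minus bulge for each measured member (log2; points, difference in WT in black and in Runx1 iTG in orange; bars, 95% interval from the limma fit; 2 arrays per group). All S and mitotic points are above 0 in both genotypes, while Ccnd1, Ccnd3 and Rb1 are below 0 in both.

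Mitotic genes had the highest class median in WT and with the genotypes averaged, though not in iTG, and their bulge replicates differed most. Without both bulge arrays numbered 2 the averaged medians were 1.34 for S and 1.12 for mitotic genes. Ccnb2, a B-type cyclin that with CDK1 drives entry into mitosis, had signals of 292 and 175 in WT bulge, 730.3 and 1426 in WT hair germ, 464 and 237 in iTG bulge and 919.9 and 914 in iTG hair germ. Every hair germ array exceeded every bulge array, and Ccnb2 rose 3.54-fold (log2 1.82, SE 0.315, adjusted p = 0.00316). Cdk1 itself was 536 and 175 in WT bulge, 937 and 1598 in WT hair germ, 557 and 255 in iTG bulge and 1252 and 1183 in iTG hair germ, also without overlap, and rose 3.6-fold (log2 1.85, SE 0.383, adjusted p = 0.00827). Ccna2, the cyclin of S phase and G2, rose 3.67-fold (log2 1.88, SE 0.410, adjusted p = 0.0107), from 433 to 1381 in bulge to 2300.2 to 3870.2 in hair germ. Foxm1, a transcription factor for G2 and mitosis genes, was 146 and 154 in WT bulge, 230.2 and 373 in WT hair germ, 138 and 34.1 in iTG bulge and 351 and 514 in iTG hair germ. It rose 3.47-fold (log2 1.80, SE 0.452, adjusted p = 0.0211), a value that includes 1 iTG bulge array close to background.

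The mitotic kinases and the spindle checkpoint came next. Aurka, the Aurora kinase of centrosomes and spindle assembly, had signals of 327 and 175 in WT bulge, 841 and 983 in WT hair germ, 507 and 486 in iTG bulge and 1079 and 679 in iTG hair germ, and rose 2.56-fold (log2 1.36, SE 0.263, adjusted p = 0.00581). Within WT it passed (1.93, adjusted p = 0.0136) and within iTG it did not (0.79, adjusted p = 0.244); the interaction of -1.14 did not pass either (adjusted p = 1.00). Plk1, the Polo-like kinase, rose 4.72-fold (log2 2.24, SE 0.567, adjusted p = 0.0219), from 41.3 to 205 in bulge to 289.6 to 657 in hair germ. The checkpoint kinases Bub1 and Ttk and the checkpoint protein Bub1b rose by 2.11, 0.95 and 2.72 (adjusted p = 0.0254, 0.0368 and 0.0402). Bub1b stood at 92.4 and 38.5 in WT bulge and 276 and 13.9 in iTG bulge, where 1 array was below background, against 321 and 591 in WT hair germ and 428 and 314 in iTG hair germ. Aurkb, the Aurora kinase of the chromosomal passenger complex, did not pass (1.22, adjusted p = 0.0837), while Birc5 (survivin), a partner in that complex, did (1.98, adjusted p = 0.0358).

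Cdc20, the activator of the anaphase-promoting complex, was 466 and 193 in WT bulge, 2289 and 1919.7 in WT hair germ, 999 and 247 in iTG bulge and 1634 and 1520.2 in iTG hair germ. It rose 4.71-fold (log2 2.24, SE 0.418, adjusted p = 0.00484), with no overlap. Ube2c, the ubiquitin-conjugating enzyme that works with the same complex, was 2503 and 704 in WT bulge, 2935 and 5151 in WT hair germ, 1669.8 and 601 in iTG bulge and 1564 and 1465 in iTG hair germ. Its iTG hair germ arrays lay no higher than the first bulge array of either genotype, and its difference of 1.07 did not pass (adjusted p = 0.115). Kif11, the kinesin that separates spindle poles, had 513 and 176 in WT bulge, 1006 and 1777 in WT hair germ, 383 and 188 in iTG bulge and 1388 and 1209 in iTG hair germ, and was 1 of 2 mitotic genes, with Foxm1, that passed within iTG (adjusted p = 0.0243 and 0.0293). Kif20a, a kinesin of cytokinesis, rose 2.39-fold (log2 1.25, SE 0.292, adjusted p = 0.0148). Mki67, the coat protein of mitotic chromosomes used as a proliferation marker, was 3434 and 1184 in WT bulge, 5568 and 7755 in WT hair germ, 3347 and 1106 in iTG bulge and 5681 and 5198 in iTG hair germ, and rose 3.03-fold (log2 1.60, SE 0.387, adjusted p = 0.0177). Top2a, topoisomerase IIα, rose 4.27-fold (log2 2.09, SE 0.623, adjusted p = 0.0430); its bulge replicates stood at 1142 and 201 in WT and 848 and 125 in iTG, a wider gap than that from the first bulge array to hair germ (1646 and 2234 in WT).

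**Figure D4:**
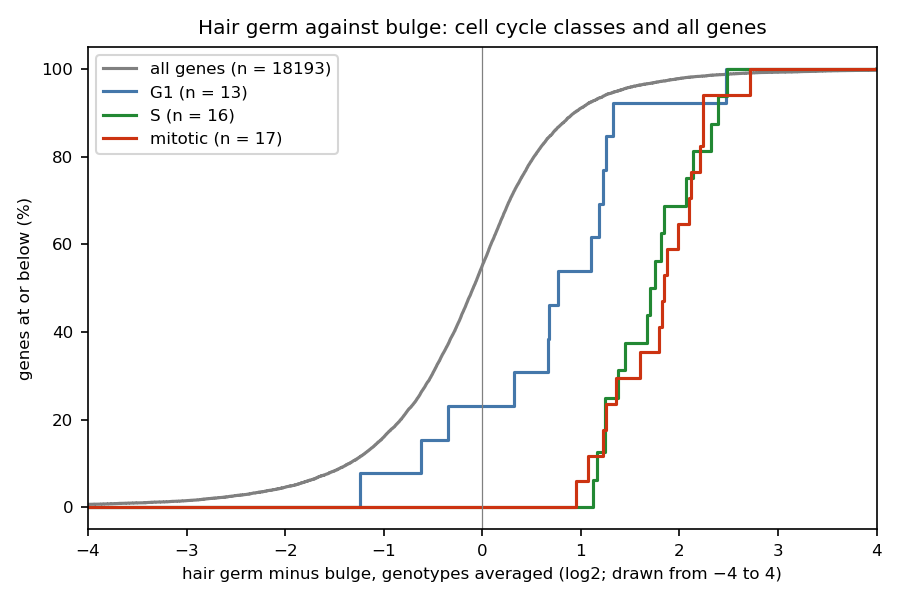
Cumulative share of genes (%) at or below a given hair germ minus bulge difference (log2, genotypes averaged, drawn from -4 to 4) for 18193 genes and for the 13 G1, 16 S and 17 mitotic members. All genes centre near 0 (median -0.09), the S and mitotic curves begin near 1, and the G1 curve starts at -1.24 with Ccnd3.

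Other genes of the same processes, listed outside the 47, were read in the same fit. Of all genes, 9.24% rose and 9.17% fell with the genotypes averaged. Of 36 further replication genes 22 rose and 0 fell with the genotypes averaged (median 1.06), led by Clspn (claspin, 2.60), Uhrf1 (2.46), Ung (2.27) and the origin-firing kinase Cdc7 (2.17) with its activator Dbf4 (2.07). Of 40 further mitotic genes 19 rose and 1 fell (median 1.48), among them the kinetochore gene Ndc80 (2.73), Racgap1 (2.38) and the CDK subunit Cks2 (2.16). Cdc25b, a phosphatase that activates CDK1, was the one that fell (-1.21, adjusted p = 0.00165). Of 36 further control genes 11 rose and 1 fell (median 0.59). The CDK inhibitors did not move as a block: Cdkn1b (p27) fell (-0.71, adjusted p = 0.0141), whereas Cdkn1a (p21, 0.98, adjusted p = 0.00974) and Cdkn2c (p18, 1.88, adjusted p = 0.00206) rose. The E2F partners Tfdp1 (1.22) and Tfdp2 (1.07), the repressor E2Fs E2f7 (2.10) and E2f8 (2.01), Myc (0.93) and the CDK1-inhibiting kinase Wee1 (1.24) rose too, and the remaining ones that rose were Cdkn3, Btg2 and Ccng1.

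The series' own comparison was transgenic against wild-type after 1 day of doxycycline. All WT arrays were labelled day 20 and the iTG arrays numbered 2 day 21, so age and genotype cannot be fully told apart in it. No member passed by limma in bulge, in hair germ, with the populations averaged or in the interaction, beside 0.022%, 0.0275%, 0.0495% and 0% of all genes. At an unadjusted p under 0.05 there were 3, 2, 1 and 1 members of 46, against 5.95%, 6.76%, 8.03% and 4.56% of all genes. Class medians for iTG minus WT were -0.06 (G1), -0.04 (S) and 0.09 (mitotic) in bulge, and -0.07, 0.00165 and -0.15 in hair germ, on the log2 scale. Each of these medians changed sign when 1 array was left out. By array, both iTG signals lay above both WT signals for 3 of 46 members in bulge and 1 in hair germ (17.4% and 20.1% of all genes). Both lay below for 6 members in bulge and 9 in hair germ (16.5% and 15.9% of all genes). A missing call does not show equal levels. The 95% interval of the difference lay within 2-fold in both directions for 8 of 46 members in bulge, 14 in hair germ and 27 with the populations averaged, against 25.9%, 26.0% and 42.3% of all genes; the 27 were 12 S, 11 G1 and 4 mitotic genes.

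**Figure D5:**
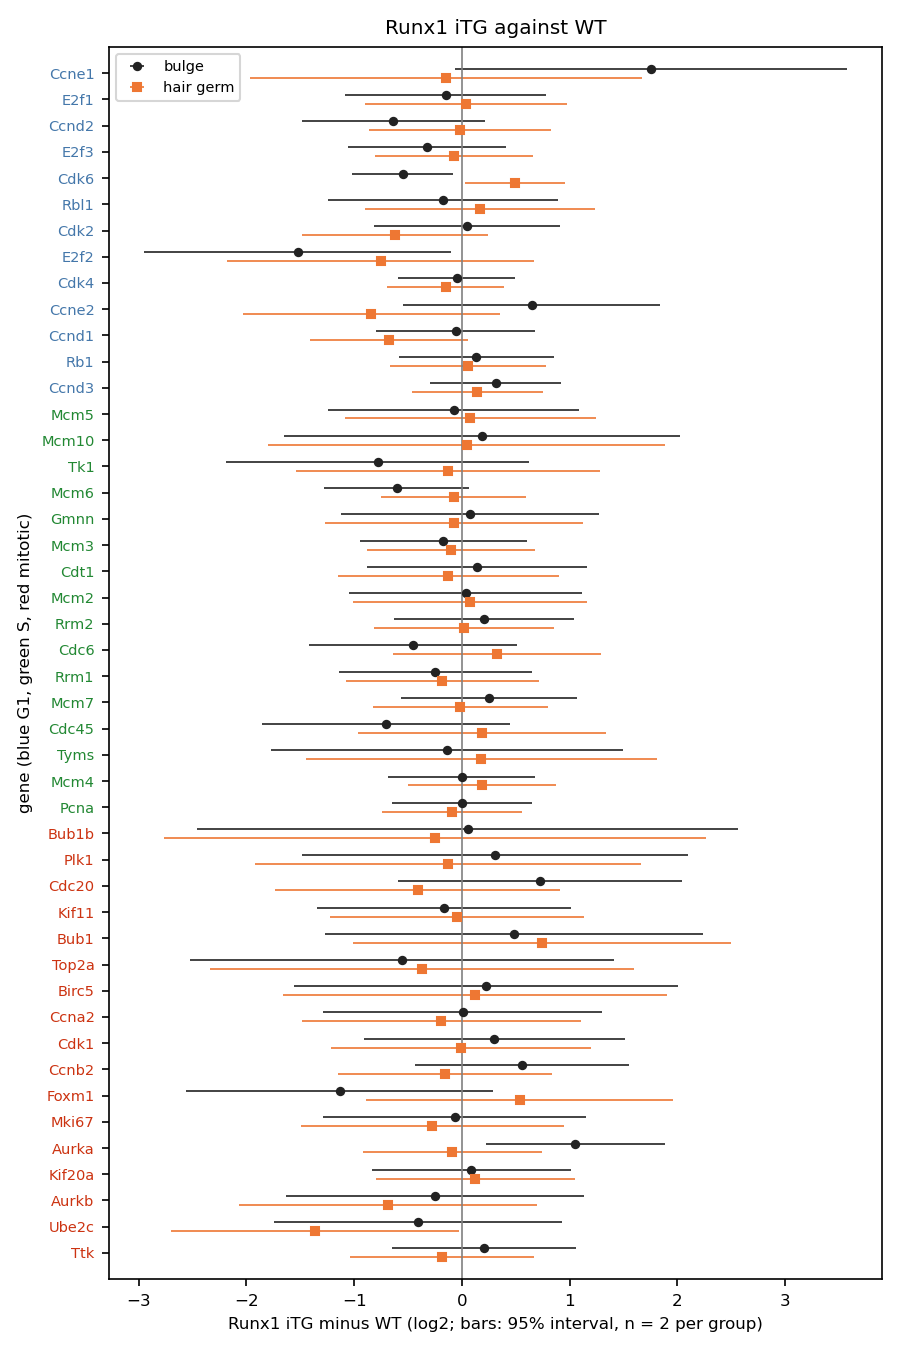
Runx1 iTG minus WT for each measured member (log2; points, difference in bulge in black and in hair germ in orange; bars, 95% interval from the limma fit; 2 arrays per group). The points scatter around 0 in each class, and the bars of most mitotic genes reach more than 1 log2 unit to each side of the point.

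Among S genes, Pcna differed by -0.04 between genotypes with the populations averaged, with a 95% interval of -0.50 to 0.41, and Mcm4 by 0.09 (-0.39 to 0.58). In bulge the S genes with the smallest p were Mcm6 (-0.60, adjusted p = 0.877 by limma), Cdc45 (-0.70) and Tk1 (-0.78). Both iTG bulge arrays of Mcm6 lay below both WT bulge arrays, and those of Cdc45 and Tk1 overlapped with WT. In hair germ they were Cdc6 (0.33), Mcm4 (0.18) and Rrm1 (-0.18), each with an adjusted p of at least 0.970.

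Among mitotic genes the smallest p in bulge was that of Aurka, whose signals were 327 and 175 in WT and 507 and 486 in iTG (1.05, adjusted p = 0.745 by limma). The iTG arrays lay above the WT arrays, and in hair germ, at 841 and 983 in WT and 1079 and 679 in iTG, the genotypes overlapped (-0.09). Foxm1 (-1.13) and Ccnb2 (0.56) followed in bulge. In hair germ the smallest p was that of Ube2c (-1.36, adjusted p = 0.734 by limma), with both iTG arrays below both WT arrays, followed by Aurkb (-0.68) and Bub1 (0.74).

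In the G1 class Cdk6 had the smallest p in both populations, with opposite signs. It lay lower in iTG bulge (-0.55, adjusted p = 0.770 by limma) and higher in iTG hair germ (0.49, adjusted p = 0.705). E2f2 (-1.52, adjusted p = 0.790) and Ccne1 (1.75, adjusted p = 0.859) followed in bulge. The E2f2 arrays stood at 354 and 329 in WT and 254 and 55.5 in iTG bulge, and those of Ccne1 overlapped. Ccnd1 (-0.68, adjusted p = 0.785) and Cdk2 (-0.62, adjusted p = 0.858) followed in hair germ, where both iTG arrays of each gene lay below both WT arrays. None of the further replication, mitotic and control genes passed in bulge, in hair germ, with the populations averaged or in the interaction by limma; at an unadjusted p under 0.05 there were 5 of 112 in bulge, 1 in hair germ, 3 with the populations averaged and 3 in the interaction, or 4.46%, 0.893%, 2.68% and 2.68%, each below the share of all genes given above. In bulge the smallest p among replication genes were those of Rpa2 (0.82) and Pole (-1.86, or -0.28 without WT bulge replicate 1), and among mitotic genes those of Nek2 (1.16) and Cdc25b (0.65). Among control genes they were those of Tfdp2 (-0.66) and Cdkn2a. Cdkn2a was not above background on either WT bulge array (25.7 and 7.61) and stood at 44.2 and 43.0 in iTG bulge. The iTG bulge mean was 1.40-fold the background limit of 31.1, a ratio without an error estimate, and the difference did not pass. In hair germ the same ranking gave Clspn (-1.23, or -0.53 without WT hair germ replicate 2) and Rfc1 (-0.43), Espl1 (-0.91) and Pttg1 (-0.46), and Lin9 (0.92) and Myc (0.49).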

How the data were processed

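Per the labels, 5 ng of total RNA from sorted skin cells was amplified (NuGEN Ovation Pico WTA), biotin-labelled and hybridised, 1 array per sample. For 45101 probe sets the authors deposited a linear intensity, with a trimmed mean of 500 on each array (program: not given in the sources used here). After removal of 64 control probe sets, arrays were scaled to a common 75th percentile (factors 0.951 to 1.03), a floor of 2.42 was set before taking log2. Symbols came from the platform annotation: 34945 probe sets had 1 symbol, 932 several and 9160 none. Of 18193 genes, 18032 matched RefSeq by Entrez identifier, as did all 46 measured members. Background, 31.1, is the 95th percentile of 27 bacterial control probe sets; 69.0% to 77.0% of probe sets per array exceeded it, and deposited medians were 101.6 to 162.

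A single limma fit (version 3.58.1, R 4.3.3) took the 8 arrays together with 4 group means (intensity trend; 4 residual and 9.81 total degrees of freedom), with 7 contrasts and Benjamini-Hochberg adjustment over all genes; "rose", "fell" and "passed" mean an adjusted p under 0.05. The number of arrays limits the precision: the median standard error over all genes was 0.520 for hair germ minus bulge in WT. Replicates are biological per the labels, and p-values measure their spread; whether bulge and hair germ samples share an animal is not stated. Deviations of same-numbered arrays correlated at -0.02 to 0.09, so the numbers were not taken to pair samples. Members and lists were chosen with earlier results of these data known. Members named are Mcm6, Aurka and Ccnb2, all that passed in any contrast, and in each class the 3 with the smallest p for hair germ minus bulge in WT and for iTG minus WT in each population; of other lists, those that passed or, where none did, the 2 with the smallest p. Alternatives covered scaling, floor, dim genes, probe set choice, trend, samples in the fit, blocks by replicate or sex, day, and leaving out each array. Promoter sequences are RefSeq's (GRCm38.p6).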

Additional observations from a re-analysis of the deposited data

Results flagged for a closer look

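Cdk6 lay lower in iTG than in WT bulge and higher in iTG than in WT hair germ. Its signal was 1409.5 and 1622 on the WT bulge arrays and 1044 and 1023 on the iTG bulge arrays, and 2337 and 2464 on the WT hair germ arrays and 3413 and 3337 on the iTG hair germ arrays. Both iTG arrays were thus below both WT arrays in bulge and above both in hair germ. Of all genes, 16.5% had the first order in bulge and 20.1% had the second in hair germ. The share of all genes with both is not given here. The difference between the 2 genotype differences was 1.04 on the log2 scale (SE 0.296). It did not pass over all genes (adjusted p = 1.00 by limma), and 4.56% of all genes had an unadjusted p under 0.05 in this test. With the mean of the 3 Cdk6 probe sets in place of the brightest one it was 0.79.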

How the results depend on the processing

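Apart from the main fit, 20 settings were tried, 2 of them chosen after the data were seen. The 70 calls of named members gave 1362 values; 898 kept the call, 464 lost it and 0 reversed. For hair germ minus bulge with the genotypes averaged, 45 of 46 members kept their sign in all 19 settings run, and Ccne2 changed sign in 1. Each triple below is for WT, iTG and genotypes averaged. Deposited values, an offset in place of the floor, leaving out dim genes, and sex or replicate number as a block moved no count of members by over 1.5 times. With the replicate block (identical to sex) 18, 19 and 38 members passed (7.38%, 10.2% and 18.5% of all genes), and it lost no call of the main fit. Deviations of same-numbered arrays correlated below 0.1, so the numbers were not taken as a pairing. No intensity trend gave 0, 2 and 19 members and 436, 718 and 2057 genes. Fitting only the groups compared gave 4 members and 794 genes in WT and 7 and 820 in iTG. Quantile normalization gave 8 members in WT (6.46% of all genes). The mean of probe sets moved the S median in WT to 1.25 and the G1 median in iTG to 0.68. The day 20 arrays alone gave 5, 0 and 8 members and 790, 379 and 1662 genes, with medians in iTG of 0.52 (G1) and 0.86 (mitotic). Without both bulge arrays numbered 2, 1, 1 and 10 members and 122, 156 and 1046 genes passed; medians were 0.50 (G1) and 1.17 (S) in WT, 0.52 (G1) and 0.80 (mitotic) in iTG, and 0.50, 1.34 and 1.12 for G1, S and mitotic genes averaged. Without both numbered 1, 357, 479 and 2134 genes passed, the mitotic median in iTG was 2.61, and averaged medians were 1.14, 2.14 and 2.53. These last 3 settings use fewer arrays; for the others the cause was not tested. Leaving out 1 array at a time gave 0 to 13, 2 to 20 and 21 to 41 members and 339 to 1201, 617 to 1545 and 2062 to 2946 genes. Medians then ranged in WT from 0.50 to 1.01 (G1), 1.17 to 2.13 (S) and 1.19 to 2.70 (mitotic), in iTG from 0.52 to 1.20, 1.33 to 2.15 and 0.80 to 2.61, and averaged from 0.62 to 1.15, 1.5 to 2.0 and 1.40 to 2.30. For iTG minus WT no member passed in any setting. Leaving out 1 array moved its medians in bulge between -0.23 and 0.19 (G1), -0.55 and 0.35 (S) and -0.76 and 0.85 (mitotic), and in hair germ between -0.27 and 0.16, -0.28 and 0.28, and -0.46 and 0.19, so their sign changed with single arrays.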

Other observations

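Further probe sets of the members were read beside the ones that stand for each gene. The 46 members had 111 single-symbol probe sets, and 34 members had more than 1. Of 65 further probe sets 60 were above background on at least 4 arrays. Of these, 54 had the same sign for hair germ minus bulge, genotypes averaged, as the probe set used. With that sign 36 passed, and 0 passed with the opposite sign. The share of all probe sets that passed is not given here, and of all genes 18.4% passed in this comparison. All 7 probe sets of Ccnd2 passed, with differences of 1.25 to 1.87 on the log2 scale, and the 3 of Cdk6 passed with 1.19 to 1.72. Tyms, which did not pass through its brightest probe set (1.24), had dimmer ones at 2.30 and 2.74 that passed (adjusted p over all probe sets 0.0259 and 0.0401) and another at 0.26. The 2 further Ccnd1 probe sets lay at -0.48 and -1.25, the latter with an adjusted p of 0.0582.
The probe sets used for Cdk4, Ccne1, Mcm4, Mcm5, Mcm6, Rrm2 and Cdc20 are of the type whose probes may also match other transcripts, and their signals may include those. Those used for Mcm3, Mcm7 and Aurkb are of another type, whose probes can be shared by several transcripts. A dim probe set of Mcm6 had the opposite sign (-1.12, adjusted p = 0.361), while another lay at 2.16.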
